A study of Ericerus pela with 8 samples.

Results

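In the larvae of the Chinese white wax scale Ericerus pela, 4 transcripts matched to zinc finger proteins were read almost wholly in males, and another 2 were read more in females at every stage. These 6 unigenes, which are assembled transcript fragments, were selected on the difference between their female and male read counts, out of 381 unigenes whose best protein match named a zinc finger protein and 147509 unigenes in all. The counts that chose them are those of the same 8 libraries described here. Their sex differences are therefore a description and carry no test.

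The insects came from 8 groups, each sequenced as 1 RNA-seq library. Females were taken as first-instar larvae, second-instar larvae and early, middle and late adults, and males as first-instar larvae, second-instar larvae and adults. The labels name no strain, treatment or age in days, and they do not give how many insects made a library or from where they were collected. In this species the adult female is wingless and sessile, whereas the adult male has wings.

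Libraries held 1.5e+06 to 2.3e+06 reads assigned uniquely to unigenes, so the deepest was 1.58 times the shallowest. Levels are CPM, counts scaled to a common total of 1000000 reads, and levels are compared between unigenes only as RPKM, which also divides by length. A count of 0 allowed a level of up to 1.30 to 2.05 CPM, from a limit of 3 reads per library. Ratios are of CPM and carry exact 95% intervals, which cover counting error only, since reads from amplified libraries are not independent molecules. No group had a second library, so no ratio has a replicate check. In RNA from whole insects, fewer cells of a type and less RNA per cell cannot be told apart.

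A C2H2 zinc finger is a short protein fold held together by a zinc ion, and several of them in a row read a stretch of DNA, so most proteins of this kind are transcription factors. The family grew by repeated duplication in many animal lineages, and its members share a recurring finger and linker, which makes a short fragment hard to assign to 1 gene. In many insects the sex of a cell is set by a splicing cascade that ends in doublesex, a DM-domain factor with a different zinc-binding fold. C2H2 factors such as ovo act in the female germ line of Drosophila. Whether either holds in Ericerus pela was not tested.

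The 6 members were short: their median length was 410.5 bases (317 to 681), against 401 for the zinc finger list and 241 for all unigenes. Of the 6 best matches, 5 were vertebrate proteins, 1 was from the cnidarian Hydra magnipapillata, and 0 were from an arthropod. Among all 381 listed unigenes, 73.2% matched an arthropod best and 16.8% a vertebrate, while among all 29028 unigenes with a protein match those shares were 87.2% and 4.62%. Zinc fingers made up 4.77% of the vertebrate-matched and 1.10% of the arthropod-matched unigenes. The match names given below are therefore those of the nearest protein found by the authors and do not show that a unigene is the wax scale counterpart of that protein.

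Unigene138890_FOB was the male-high unigene with the fewest female reads, 1 in all. It is 401 bases long, and its best match was a zinc finger protein of Hydra magnipapillata (e-value 1.28e-14), for which no function was given. The first-instar, second-instar, early adult and middle adult female libraries held 0 reads of it, and the late adult female library held that 1 read. The male libraries held 81 reads at the first instar, 85 at the second and 33 in the adult, or 35.2, 39.0 and 17.9 CPM. Every male library lay above every female library. The members were picked for such a difference, and the share of all unigenes with this order was not counted. Against the floor of 3 reads, males were at least 25.8-fold higher at the first instar and at least 24.9-fold higher at the second. Male adults were at least 11.9-fold higher than early female adults and at least 8.73-fold higher than middle ones, and 33.4-fold (5.60 to 1360) higher than late ones. A second unigene with the same best match, Unigene137822_FOB, had 0 to 6 reads per library and no such split.

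Unigene152287_FOB, at 681 bases the longest member, matched a zinc finger protein 347-like protein of zebrafish, and its only gene ontology term was binding. It had 135 reads in first-instar males and 109 in second-instar males, or 58.6 and 49.95 CPM. Females of those instars had 2 and 4 reads, or 0.909 and 2.09 CPM. Larval males were thus 64.5-fold (17.5 to 538) and 23.9-fold (9.09 to 89.5) higher. The male adult library held 1 read, or 0.543 CPM, whereas the early, middle and late female adult libraries held 2, 6 and 7, or 1.01, 4.11 and 3.75 CPM. The high libraries were therefore the 2 of male larvae alone, and in adults each female value was above the male value. The adult ratios of female to male, 1.85 (0.0965 to 109), 7.56 (0.917 to 348) and 6.91 (0.888 to 311), all had intervals that include 1. That adult order rests on a single male read.

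Unigene132179_FOB, of 346 bases, matched a transcription factor YY2-like protein of the orangutan. In mammals YY2 is a relative of YY1, a C2H2 factor that activates or represses transcription, and pleiohomeotic is the YY1 counterpart in Drosophila. This was the 1 member with the gene ontology process gonad development, a term carried over from its match. It had 59 and 64 reads in first-instar and second-instar males, or 25.6 and 29.3 CPM, and 1 read in females of each instar. Males were 56.4-fold (9.73 to 2263) higher at the first instar and 56.2-fold (9.74 to 2256) higher at the second. Male adults had 1 read, or 0.543 CPM, and early, middle and late female adults had 2, 4 and 2. As with the zebrafish-matched unigene, only male larvae stood high, and the adult groups were all at the few reads that counting error can reorder.

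Unigene141887_FOB matched an oocyte zinc finger protein XlCOF7.1-like protein of Xenopus (Silurana) tropicalis, one of a large set of C2H2 proteins first described from frog oocytes. The unigene is 433 bases long. Despite the name of its match it was highest in male larvae, with 91 reads in first-instar males, 63 in second-instar males and 15 in male adults, or 39.5, 28.9 and 8.15 CPM. Female libraries held 1 read at the first instar, 0 at the second, 0 in early adults, 1 in middle adults and 10 in late adults. Males were 86.9-fold (15.2 to 3471) higher at the first instar and at least 18.5-fold higher at the second. In adults the male level was at least 5.40-fold the early female level, 11.9-fold (1.83 to 501) the middle and 1.52-fold (0.639 to 3.78) the late female level. Late adult females, at 5.36 CPM, were 7.83-fold (1.11 to 340) above middle ones and were the highest female library for this unigene.

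**Figure D1:**
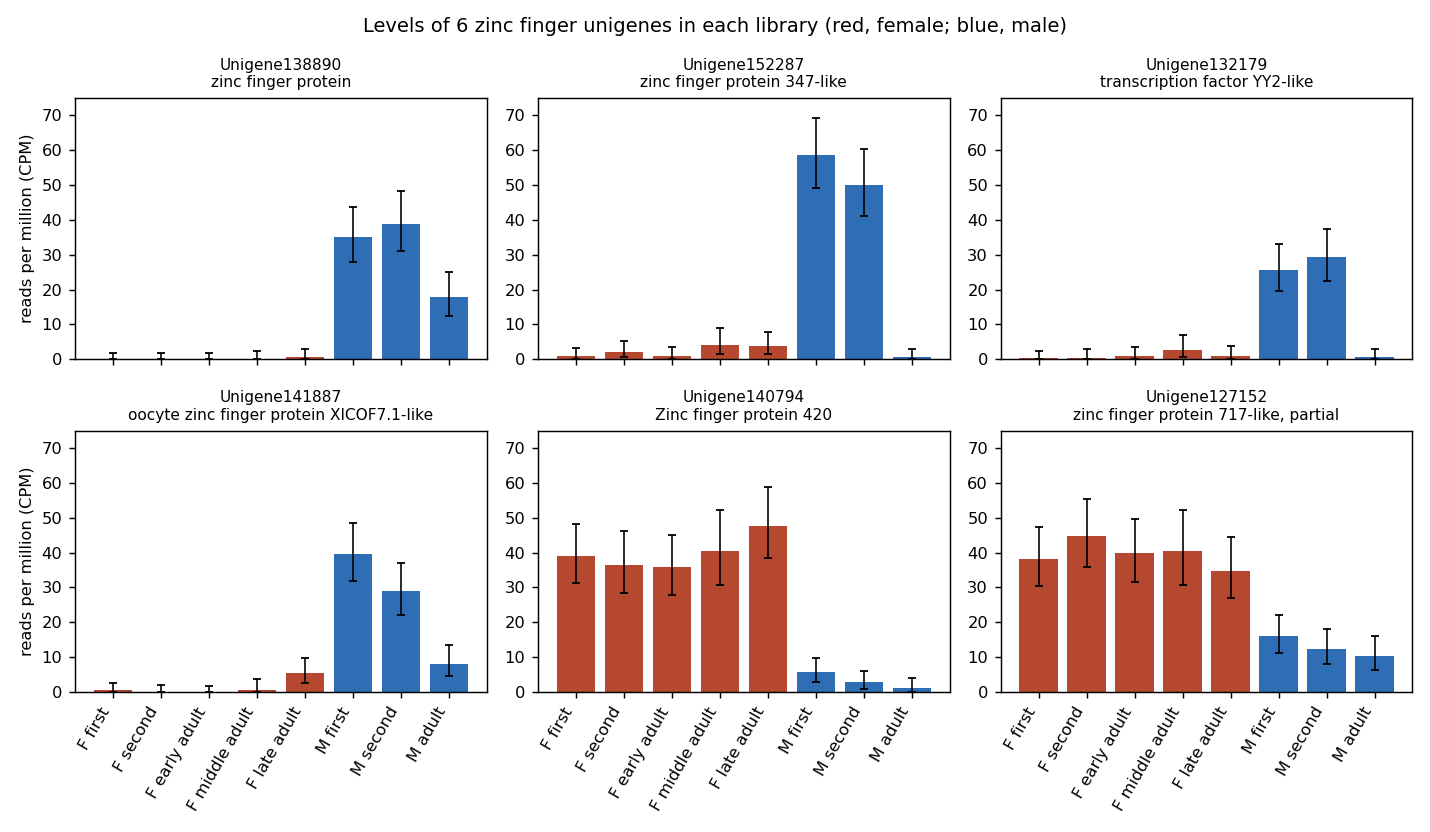
Levels of the 6 members in CPM in each of the 8 libraries, with F for female and M for male. Bars are 1 library each and whiskers are exact 95% counting intervals. The upper 3 panels and the lower left panel show high male larvae, and the other panels show female bars between 34.9 and 47.7 CPM above all 3 male bars.

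Unigene140794_FOB was the more strongly female-high of the other pair. It is 420 bases long and matched Zinc finger protein 420 of the opossum Monodelphis domestica, one of the many vertebrate C2H2 proteins known by number, with the ontology term binding. Female libraries held 86, 70, 71, 59 and 89 reads from the first instar to the late adult, or 39.1, 36.5, 35.7, 40.4 and 47.7 CPM. Male libraries held 13 reads at the first instar, 6 at the second and 2 in the adult, or 5.64, 2.75 and 1.09 CPM. All 5 female values were above all 3 male values, an order whose share over all unigenes was not counted. Females were 6.93-fold (3.84 to 13.5) higher at the first instar and 13.3-fold (5.80 to 37.4) at the second. Early, middle and late female adults were 32.9-fold (8.78 to 277), 37.2-fold (9.85 to 314) and 43.9-fold (11.8 to 368) above the male adult. Across the female libraries the highest level was 1.34 times the lowest, and the late to early adult ratio of 1.34 (0.967 to 1.85) was within counting error.

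Unigene127152_FOB matched a partial zinc finger protein 717-like protein of the rabbit and is the shortest member at 317 bases. It was the 1 member with the ontology process DNA-dependent transcription. It had 84, 86, 79, 59 and 65 reads in the female libraries from the first instar to the late adult, or 38.2, 44.8, 39.8, 40.4 and 34.9 CPM. Males had 37, 27 and 19 reads, or 16.1, 12.4 and 10.3 CPM. The groups did not overlap, but the share of all unigenes with this order was not counted. In both instars the fold difference between the sexes was smaller than for the other members. Females were 2.38-fold (1.60 to 3.60) higher at the first instar, 3.62-fold (2.33 to 5.81) at the second, and 3.38-fold to 3.91-fold in the 3 adult stages. It was the 1 member that did not reach a 4-fold difference at any stage once 1 CPM was added to each level.

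Coverage of the unigene sequence followed the reads in broad terms only. For Unigene127152_FOB, 37 reads covered 70.0% in first-instar males, while 27 reads covered 90.9% in second-instar males. In male larvae 92.3% to 98.6% of the length of each male-high member was covered, while in females the share was 0 to 56.8% and in the male adult 7.2% to 85.3%. The female-high pair was covered over 87.9% to 97.5% of its length in females and over 23.3% to 90.9% in males. Where a member was high, its reads reached nearly all of its sequence.

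Per length, the 4 male-high members spanned a narrow range in larval males and a wide one in the male adult. Their levels were 74.0 to 91.2 RPKM in first-instar males and 66.7 to 97.1 RPKM in second-instar males. The ratio of Unigene138890_FOB to Unigene152287_FOB was 1.02 (0.764 to 1.35) at the first instar, and that of Unigene138890_FOB to Unigene141887_FOB was 1.46 (1.04 to 2.05) at the second. In the male adult the order was 44.7 RPKM for Unigene138890_FOB, 18.8 for Unigene141887_FOB, 1.57 for Unigene132179_FOB and 0.798 for Unigene152287_FOB. Unigene138890_FOB was there 2.38-fold (1.25 to 4.71) above Unigene141887_FOB and 56.0-fold (9.38 to 2280) above Unigene152287_FOB, while the lowest 2 stood at 1 read each and cannot be ordered. In females Unigene127152_FOB lay 0.968 to 1.63 times as high as Unigene140794_FOB per length. In males it was 3.77-fold (1.96 to 7.73) higher at the first instar and 12.6-fold (3.04 to 111) higher in the adult.

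Between the instars of the male, the levels of the 4 male-high members were within counting error. The ratio of second to first instar was 1.11 (0.807 to 1.52) for Unigene138890_FOB, 0.852 (0.656 to 1.11) for Unigene152287_FOB, 1.14 (0.791 to 1.66) for Unigene132179_FOB and 0.731 (0.521 to 1.02) for Unigene141887_FOB. From the second instar to the adult they parted. The second-instar level was 92.0-fold (16.2 to 3665) the adult level for Unigene152287_FOB and 54.0-fold (9.35 to 2165) for Unigene132179_FOB, against 3.54-fold (1.99 to 6.70) for Unigene141887_FOB. The adult level of Unigene138890_FOB was 0.460 (0.298 to 0.695) of the second-instar level.

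Those male adult values have to be read against a shift of the whole library. The median log2 ratio of male adult to second instar was -0.63 over all unigenes and -0.93 over the zinc finger list when libraries were scaled by their totals. It was -0.27 and -0.58 with TMM scaling, and -0.07 and -0.39 with DESeq2 size factors. With the latter the ratio for Unigene138890_FOB became 0.699 (0.453 to 1.06), which includes 1, while Unigene141887_FOB stood at 0.429 (0.227 to 0.762) and the other 2 at 0.0165 and 0.0281. Of the unigenes measured in this step, 17.4% were at least 4-fold lower in the male adult and 10.1% higher. The zinc finger list had 23 of 202 lower and 4 higher. The male larval libraries also took part in the choice of the members, so these steps are described without a test.

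**Figure D2:**
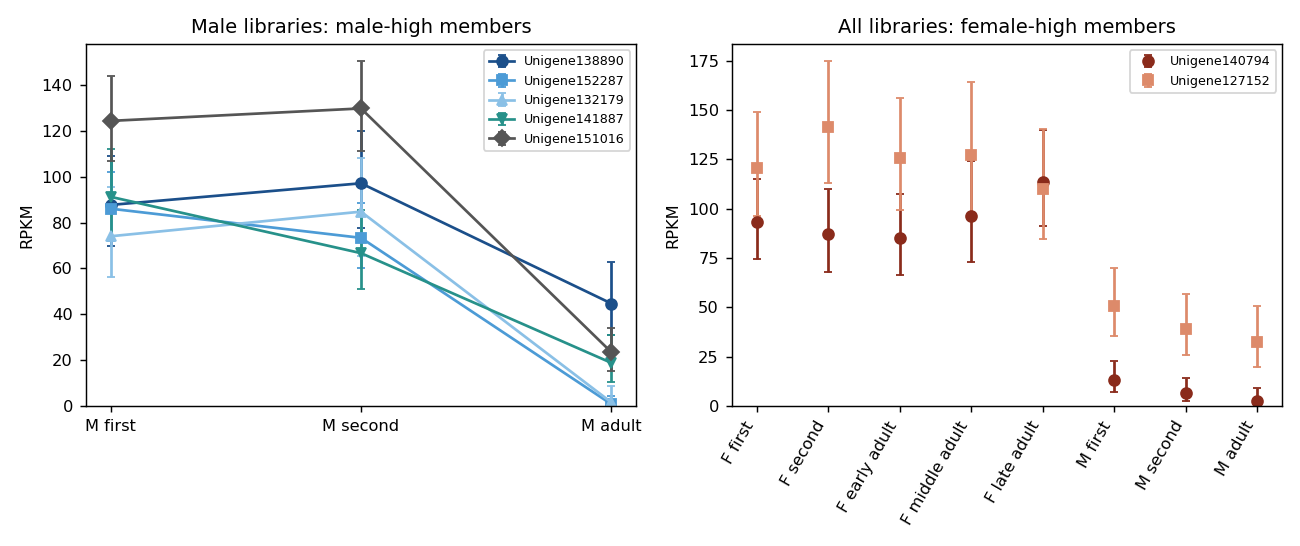
Levels per length (RPKM) with exact 95% counting intervals, 1 library per point. The left panel shows the male-high members and Unigene151016_FOB in the 3 male libraries, where 2 members stand at 1.57 RPKM or less in the adult; the right panel shows the female-high pair in all 8 libraries, where Unigene140794_FOB is further below Unigene127152_FOB in males than in females.

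Members were chosen on the difference between the sexes, not on the difference between stages common to both sexes. The choice drew on the same 8 libraries, however, so the stage contrast is not independent of it. For Unigene152287_FOB and Unigene132179_FOB, that contrast includes the male larval libraries that made them male-high. The stage difference was tested across all 8 libraries with edgeR's quasi-likelihood test, with sex and stage as terms. Benjamini-Hochberg adjustment was over 51155 unigenes. All 6 members were tested, and none passed for the second against the first instar or for adults against the second instar, with an adjusted p = 1 in each case. The approximate SE, the absolute log2 change divided by the square root of the test's F statistic, was smaller for the female-high pair. Unigene140794_FOB gave a log2 change of -0.58 (SE 0.55) from first to second instar and 0.15 (SE 0.50) from second instar to adult, and Unigene127152_FOB gave -0.07 (SE 0.42) and 0.06 (SE 0.37). For the male-high members this approximate SE ran from 0.90 to 1.61, so the test could not resolve changes of several fold in them. Of the 276 zinc finger unigenes tested, 0 passed either contrast, as did 0% of all unigenes. The result for the members therefore does not set them apart, and no conclusion is drawn from it. At an unadjusted p under 0.05 there were 2 and 0 in the list and 650 and 628 among all unigenes. DESeq2 called 0 of the list and 471 and 396 of all unigenes.

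The whole zinc finger list was compared between the sexes by 1 rule. A unigene was counted when at least 1 of the 2 libraries held 20 or more reads and the levels, each with 1 CPM added, differed at least 4-fold. In first-instar larvae 0.766% of all unigenes were counted as male-higher and 2.79% as female-higher. Of 214 listed zinc fingers measured there, 5 were male-higher and 1 female-higher, and the 6 were 5 members and Unigene151016_FOB. Among the 148 arthropod-matched zinc fingers 0 were counted. Of all 16781 arthropod-matched unigenes measured, 0.590% were male-higher and 0.328% female-higher, so few were to be looked for among 148. Vertebrate-matched zinc fingers without the members had 1 male-higher and 0 female-higher of 37. The median log2 ratio of female to male was -0.26 for the list, -0.26 for all unigenes with a protein match and -0.11 for all unigenes. Every listed zinc finger has a protein match, and of the matched unigenes 0.612% were male-higher and 0.448% female-higher.

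In second-instar larvae 2.64% of all unigenes were male-higher and 3.67% female-higher. The list had 6 male-higher and 5 female-higher of 211, and without the members 2 and 4 of 205. The highest female ratios outside the members belonged to an arthropod-matched C2H2 protein, Unigene135986_FOB, with 36 reads against 2 and a ratio of 20.5 (5.27 to 176), and to Unigene151161_FOB, with 99 against 8 and 14.1 (6.88 to 33.5). Unigene36954_FOB followed with 73 against 13 and 6.39 (3.51 to 12.6). On the male side Unigene151016_FOB came first, with 177 reads against 3, followed by Unigene33924_FOB, matched to an NFX1-type zinc finger protein, with 23 reads against 1 and 20.2 (3.28 to 833).

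Both instars together counted 0.213% of 30075 unigenes as male-higher and 0.396% as female-higher. Of 189 listed zinc fingers, 5 were male-higher in both, the 4 male-high members and Unigene151016_FOB, and 1 female-higher, Unigene140794_FOB. Because the members were chosen for these differences, nothing is read from those shares. Without the members the counts were 1 and 0 of 183.

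In adults a unigene was counted when each of the 3 female stages passed in the same direction against males, and 9.34% of all unigenes were male-higher and 7.8% female-higher. The 3 comparisons share the 1 male library. The list had 4 and 7 of 126, and without the members 3 and 6 of 123. Scaling mattered here. Over all unigenes, the median log2 ratio of early female to male adults was 0.52 by library totals, 0.19 with TMM and 0.04 with DESeq2. That of matched unigenes was 0.60, 0.26 and 0.11, and that of the list 0.65, 0.33 and 0.19. For middle females, DESeq2 size factors gave -0.05 for all unigenes, 0.25 for matched ones and 0.46 for the list. For late females they gave 0.24, 0.50 and 0.84. Ranked by the smallest of the 3 adult ratios, the female side outside the members was led by Unigene130457_FOB, a C2H2 family protein with 29, 25 and 45 reads in early, middle and late females against 3, Unigene144844_FOB with 46, 38 and 43 against 5, and Unigene132159_FOB, an NFX1-type protein, with 23, 22 and 35 against 3. By the same ranking the male side was led by Unigene144939_FOB, matched to a Ran-binding domain zinc finger protein, with 105 reads in the male adult against 8, 3 and 12. It was followed by Unigene121109_FOB, matched to a CCHC-type protein with peptidase and ribonuclease H domains, with 20 against 2 in each female library, and by Unigene115710_FOB, matched to znf683, with 55 against 10, 0 and 2. At all 3 stages 0.0924% of 21639 unigenes were male-higher and 0.00924% female-higher, and in the list these were Unigene138890_FOB and Unigene140794_FOB.

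**Figure D3:**
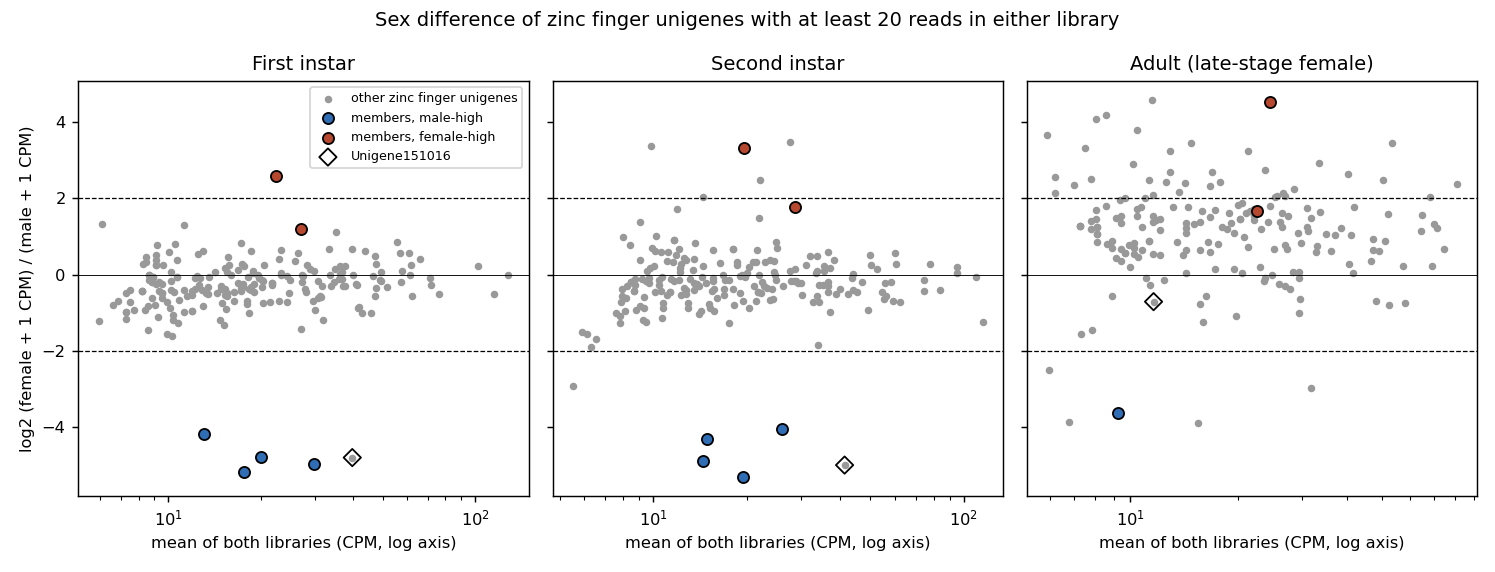
Log2 ratio of female to male level, with 1 CPM added, against the mean level (log axis) for listed zinc fingers read 20 times or more in at least 1 of the 2 libraries, in first-instar larvae, second-instar larvae, and late female against male adults. Dashed lines mark a 4-fold difference. The male-high members and Unigene151016_FOB lie apart from the other zinc fingers in both larval panels; 3 male-high members have too few adult reads to appear on the right.

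Across all stages, edgeR's test of male against female called 0 of the 276 zinc fingers and 0% of all unigenes. At an unadjusted p under 0.05 there were 5 of 270 list unigenes without the members and 2391 among all unigenes. Within the list, the lowest adjusted p outside the members was 0.886, shared by several unigenes, among them Unigene151016_FOB. Over all unigenes the lowest adjusted p of this edgeR test was 0.118. DESeq2 called 4 of the list, of which Unigene151016_FOB was the only non-member, among 465 unigenes in all. The members were chosen for this contrast, so nothing is read from their calls.

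Unigene151016_FOB had the profile most like those of the male-high members within the list. It is 625 bases long and its best match was a zinc finger protein 347-like protein of the giant panda. Its reads were 4, 3, 2, 3 and 16 in the female libraries from first instar to late adult and 179, 177 and 27 in first-instar, second-instar and adult males. Males were 42.7-fold (16.4 to 159) higher at the first instar and 51.8-fold (17.5 to 254) at the second. In adults the ratio of male to female was 14.6 (3.66 to 126) for early females, 7.14 (2.20 to 36.8) for middle and 1.71 (0.888 to 3.40) for late ones. Its late female library was 4.18-fold (1.20 to 22.4) above the middle one. The late adult was also the highest female library for Unigene141887_FOB. Per length it stood at 124, 130 and 23.5 RPKM in the male libraries.

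Likeness was measured as the overlap of profiles, the summed smaller share of a unigene's CPM over the 8 libraries, which share their depth and source. Because the members were chosen on these libraries as male-high or female-high, high overlap within each set and low overlap between the sets follow from the choice. The 4 male-high members overlapped each other by 80.3% to 91.1% and Unigene151016_FOB by 88.4% to 90.1%, and the female-high pair overlapped by 86.7%. Overlap between the male-high and female-high members was 5.12% to 24.2%. Whether some members are pieces of 1 gene was not tested, since no sequences were used here, and unigenes of 1 family may also share reads. The other matches to zinc finger protein 347-like, Unigene150542_FOB and Unigene36964_FOB, had no split of this size. They had 74 and 56 reads in first-instar females and 78 and 67 in first-instar males. At the second instar they had 47 and 35 reads in females and 108 and 32 in males.

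Of 14461 unigenes with a named protein and at least 50 reads, the 3 closest to each member were taken, and besides Unigene151016_FOB they matched other kinds of protein. Unigene144418_FOB, matched to Tigger transposable element-derived protein 1, overlapped Unigene138890_FOB by 92.7%, with 1, 0, 0, 0 and 1 reads in the female libraries and 89, 113 and 60 in the male ones. A transposase match, Unigene135148_FOB, was likewise read in males alone, with 54, 105 and 27 reads. Unigene36941_FOB, matched to doublesex-Mab related 99B, a DM-domain protein of the same family as doublesex, overlapped Unigene132179_FOB by 84.5% and Unigene152287_FOB by 78.9%. It had 5, 2, 2, 1 and 2 reads in females and 21, 34 and 2 in first-instar, second-instar and adult males. Unigene32112_FOB, matched to the growth-restraining kinase LATS1, overlapped Unigene141887_FOB by 86.2%, with 175, 82 and 39 male reads and 4 to 22 female reads.

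The female-high pair was closest to unigenes with other roles. Unigene64447_FOB, matched to carboxypeptidase A, a digestive enzyme in many insects, overlapped Unigene127152_FOB by 95.01% and Unigene140794_FOB by 85.4%. Unigene142936_FOB, matched to furrowed, a selectin-like protein of the Drosophila eye, overlapped Unigene127152_FOB by 93.2%, and Unigene52622_FOB, matched to the RNA helicase Dbp80, by 91.7%. Unigene140794_FOB was closest to Unigene96569_FOB, matched to methylmalonate-semialdehyde dehydrogenase, at 86.4%, and after carboxypeptidase A to Unigene104855_FOB, matched to cytochrome P450 3A2, at 85.4%. Female profiles are flat and so overlap widely: the median zinc finger overlapped Unigene127152_FOB by 76.7%, but Unigene138890_FOB by 36.3%.

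**Figure D4:**
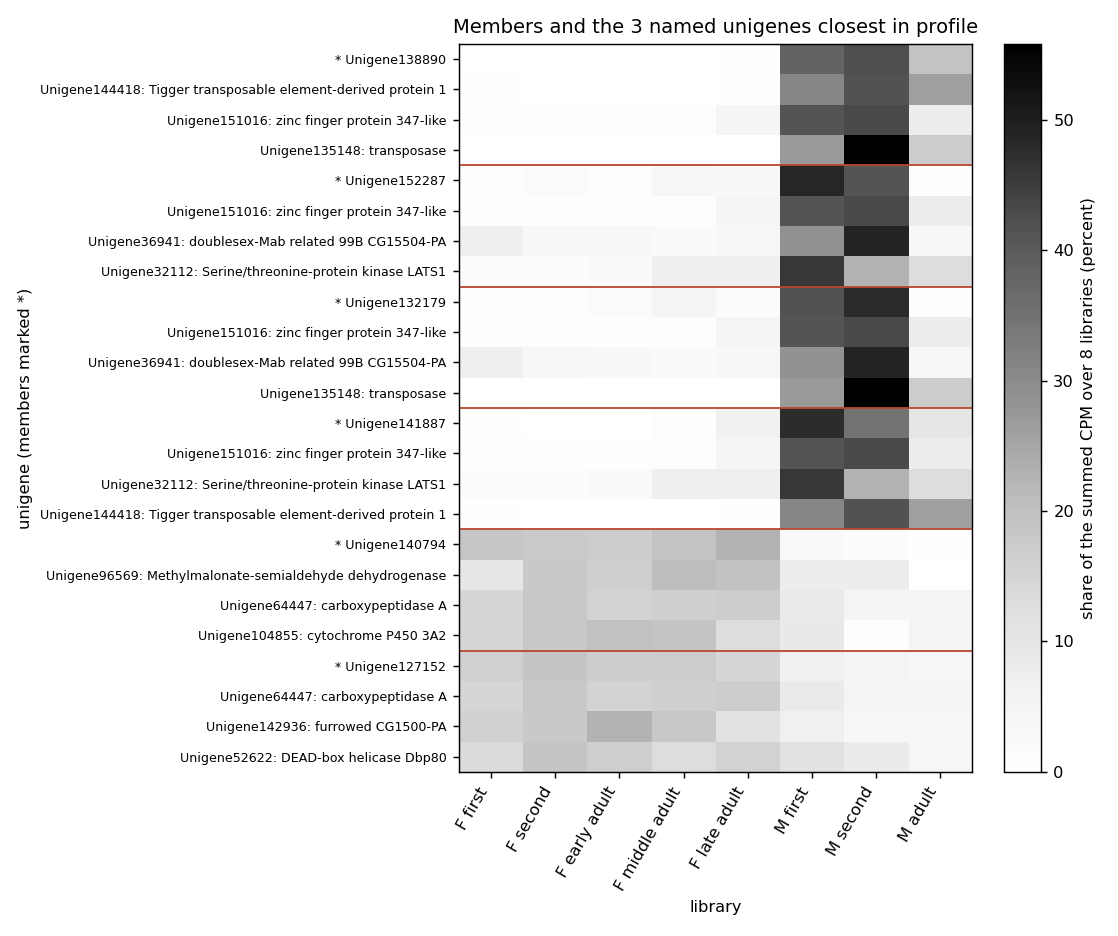
Share of a unigene's summed CPM (percent, darker is higher) in each of the 8 libraries, for each member (starred) and its 3 closest named unigenes. The male-high blocks are dark in male larvae and differ in the male adult column, and the female-high blocks are even over the female libraries.

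The known insect regulators with C2H2 or related zinc fingers are given by their most abundant match. Unigene69106_FOB, matched to YY1 of an ant, had 102, 69, 90, 59 and 107 reads in the female libraries and 93, 86 and 38 in the male ones. Unigene140800_FOB, matched to the insulator protein CTCF, had 54, 48, 38, 37 and 83 against 65, 48 and 20. In the instars the ratio of female to male was 1.15 (0.858 to 1.54) and 0.913 (0.655 to 1.27) for YY1 and 0.870 (0.595 to 1.27) and 1.14 (0.747 to 1.73) for CTCF, so both were within counting error. In adults the female libraries were higher, 1.96-fold to 2.78-fold for YY1 and 1.76-fold (0.999 to 3.19), 2.33-fold (1.32 to 4.24) and 4.10-fold (2.49 to 7.05) for CTCF in early, middle and late females. Unigene149351_FOB, matched to GATA-4, of a family that acts in the heart and the gut, was lower in first-instar females, at 0.299 (0.132 to 0.617) of the male level. It was 3.19-fold (1.48 to 7.62), 5.18-fold (2.46 to 12.2) and 2.96-fold (1.35 to 7.16) higher in early, middle and late female adults than in the male adult. Unigene34272_FOB, matched to longitudinals lacking, an axon guidance factor, was lower in second-instar females, at 0.338 (0.156 to 0.677) of the male level. None of these 4 met the 4-fold rule in an instar or in all 3 female adult stages, and the male adult library is the one with the shifted median described above. Matches to broad and escargot had under 20 reads in every library and fell short of the read minimum. So did the only unigene found by the name ovo, which matched an OVO-like 1 binding protein of zebrafish. Its reads are therefore not taken as a level of ovo itself. The hunchback match reached it in the late adult female library alone. For broad, a factor of the ecdysone response, the 3 female adult libraries held 13, 13 and 16 reads against 2 in the male adult, a ratio of 6.02 (1.36 to 55.0) for the early stage. For hunchback, a gap gene of the early embryo, the late adult female library held 21 reads against 1 in the male adult, a ratio of 20.7 (3.33 to 857). The early and middle adult pairs fell short of the read minimum, so hunchback was not measured by the adult rule. Tramtrack was measured at the second instar alone, with 9 female and 20 male reads, and was under 4-fold. No match description named Kruppel homolog 1, odd-skipped or suppressor of Hairy-wing.

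The members made up a small part of zinc finger reads. They held 77.5 to 93.3 CPM together in the female libraries, 181 and 162 in first-instar and second-instar males and 38.6 in the male adult. The whole list held 4882 to 6306 CPM in females, 5950 and 5823 in larval males and 3285 in the male adult. The male adult was lowest under each scaling, at 4100 CPM against 4756 to 6896 with TMM and 4518 against 4715 to 6530 with DESeq2 size factors, and late adult females were highest.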

How the data were processed

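RNA was measured in 8 libraries, 1 per group as the titles name them. Per the labels' protocols, total RNA of washed insects was taken up in TRIzol and sequenced on Illumina libraries. Per the file headers, the authors give for each unigene the count of uniquely assigned reads, RPKM, the percent of its length covered, its length (bases), its ontology terms and its closest protein. No sequence or genome was used here. Which aligner, assembler and strand setting were used is not stated in the labels or headers.

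Files were joined by unigene identifier, and a unigene not listed in a file was taken as 0 reads. CPM used the total in each file's header. RPKM was recomputed from counts and length, and its intervals are those of the count. Ratio intervals are exact conditional binomial intervals at 95%. The zinc finger list was found by words in the match description (zinc finger, ZNF or ZFP with a number, Kruppel, transcription factor YY), and match organisms were sorted into classes by genus by hand. The members and lists were chosen with earlier results of these data known. Named besides the members were up to 3 listed unigenes per direction in each sex comparison, the most abundant match per regulator, and the 3 unigenes closest in profile to each member; Unigene151016_FOB, its like-named unigenes and Unigene137822_FOB were described in full after their values were seen.

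Tests used edgeR 4.0.16 (glmQLFit and glmQLFTest, TMM, filterByExpr, sex and stage as terms, 4 residual degrees of freedom, median biological coefficient of variation 0.509) in R 4.3.3. Its error comes from departures between stages and sexes, not from replicate libraries. The scripts were tested on simulated data. Alternatives were DESeq2 1.42.0, other scalings, read minimums, an added 5 CPM, narrower lists and leaving out each library.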

Additional observations from a re-analysis of the deposited data

Results flagged for a closer look

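The sexes took opposite orders in larvae and in adults for Unigene152287_FOB and Unigene132179_FOB, and this difference between stages was not tested. Both were higher in males at both instars, while each of the 3 female adult libraries was above the male adult library, where each unigene had 1 read, or 0.543 CPM for Unigene152287_FOB and 0.543 CPM for Unigene132179_FOB. The adult ratios of female to male were 1.85, 7.56 and 6.91 for the former and 1.85, 5.04 and 1.97 for the latter, and every adult interval included 1.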

How the results depend on the processing

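No paired analysis was possible because each group held 1 library, with replicate number 1 only. The members' sex ratios were recomputed with TMM and with DESeq2 size factors, which multiply all unigenes of a library alike, and the widest move was 1.42 times, for early adults with DESeq2 size factors. Scaling of the male steps was added after the data were seen, and it changed 1 reading, the ratio of male adult to second instar of Unigene138890_FOB, which was 0.699 with DESeq2 size factors and within counting error. The sex test called 0 listed zinc fingers with edgeR, 4 with DESeq2 and 4 with no filter on low counts. Over all unigenes these fits called 0, 465 and 646. In each of the latter 2 fits, 3 of the 4 were members, which were picked for this contrast. The instar and adult tests called 0 listed zinc fingers under each alternative. Over all unigenes they called 471 and 396 with DESeq2 and 3 and 82 with no filter. Leaving out each library gave 0 to 0 listed zinc fingers in all 3 tests. Counts of zinc fingers at least 4-fold apart depended on the read minimum and the list. In first-instar larvae the 6 became 2 with at least 100 reads, 11 with at least 1 read and 0 with arthropod matches alone. Over all unigenes 1290 became 180 and 2920 with those 2 read minimums. In second-instar larvae the 11 became 2 with at least 100 reads and 3 with arthropod matches alone. Over all unigenes 2155 became 443 with at least 100 reads. In adults the 11 became 4 with 5 CPM added, 1 with at least 100 reads and 7 with arthropod matches alone, and 12 to 16 when 1 female adult library was left out, which loosens the rule. Over all unigenes 4531 became 2232 with 5 CPM added, 1407 with at least 100 reads and 5118 to 7717 with 1 library left out. The remaining 16 of 24 alternatives for these 4-fold counts stayed within 1.5 times. Depth limits the male-high members in females and male adults, where most libraries held under 10 reads.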
